A study of Mus musculus with 11 samples.

Results

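The genes described here are 36 genes of endoplasmic reticulum (ER) protein folding and of the unfolded protein response, chosen by name from a fixed list. All 36 were found among the 29809 named genes of the table. They were grouped by role into 6 sensors and transcription factors, 4 stress outputs, 11 chaperones and cochaperones, 4 disulfide isomerases, 7 degradation genes and 4 genes of protein entry and signal peptide cleavage. The study profiled single cells of mouse colonic mucosa in injury and colitis, with 1 library per group. The uninjured library came from wild-type (WT) mice of about 2 months. Libraries of WT mice of about the same age were made after exposure to 3% dextran sulfate sodium (DSS), a polysaccharide that injures the colonic epithelium, for 6 days. The DSS libraries cover days 6, 7, 9, 11 and 12 of the course and, later, days 16, 18, 19 and 23, counted from the start of DSS. A further library was made from Il10-/- mice of about 10 months, which lack interleukin 10 and had raised fecal lipocalin, a sign of colitis. Muscle layers were stripped off, the mucosa was digested with Liberase and cells with annexin V on their surface were removed. Each library pooled 3 or 8 mice, so animals were not replicated as separate libraries. Genotype and age cannot be told apart in the Il10-/- library.

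Proteins that enter the ER are translocated through the Sec61 channel, trimmed by signal peptidase, folded by chaperones and lectins, cross-linked by disulfide isomerases and, when they misfold, exported for degradation. Load on this system is sensed by IRE1 (Ern1, and Ern2 in mucosal epithelium), ATF6 and PERK, which act through XBP1, cleaved ATF6 and ATF4 on chaperone, degradation and stress genes. Plasma cells, goblet cells and fibroblasts export antibody, mucin and collagen, so they are the cells of the colon in which this machinery is best known. IRE1 activates XBP1 by splicing its message, and counts of 3' ends do not separate the spliced from the unspliced form.

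The best known DNA element of these genes is the ER stress response element (ERSE), CCAAT and CCACG held 9 bases apart, which is bound by ATF6 and XBP1 together with NF-Y. RefSeq promoters (GRCm38.p6, 250 bases before to 50 after the start) were available for 29 of the 36 genes. The element occurred on either strand in 9 of these 29 promoters (31.0%) and in 39 of all 32851 promoters of the table (0.119%). The list was drawn up from genes known to belong to this response, so the difference is a property of the list. The 10 copies are shown because they mark which members carry the classical element, with the fixed letters in capitals and read 5′ to 3′ along the strand given.
Hspa5, chr2:34772025-34772043, plus strand: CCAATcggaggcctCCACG
Hsp90b1, chr10:86705638-86705656, minus strand: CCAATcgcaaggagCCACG
Hsp90b1, chr10:86705533-86705551, plus strand: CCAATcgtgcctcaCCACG
Calr, chr8:84847075-84847093, plus strand: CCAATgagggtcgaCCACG
Canx, chr11:50325800-50325818, minus strand: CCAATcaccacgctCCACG
Creld2, chr15:88819520-88819538, minus strand: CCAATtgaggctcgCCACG
Dnajc3, chr14:118937827-118937845, plus strand: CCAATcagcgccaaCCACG
Pdia6, chr12:17266491-17266509, plus strand: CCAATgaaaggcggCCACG
Syvn1, chr19:6046532-6046550, plus strand: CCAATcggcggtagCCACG
Derl3, chr10:75893242-75893260, minus strand: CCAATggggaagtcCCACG

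The shorter CCACG, which is part of the full element, was found in 23 of the 29 promoters (79.3%) and in 10765 of all promoters (32.8%). The sequence TGACGTGG, an XBP1 element, was in 0 of the 29 and in 222 of all promoters (0.676%). The C/EBP-ATF sequence TGATGCAA, of the kind read by ATF4 and CHOP, was in the promoters of Chac1 and Herpud1 (6.90% of the 29) and in 294 of all (0.895%). The upstream 250 bases of 2 genes are given in full, chosen for their levels. Derl3 was the member most particular to plasma cells. Sdf2l1 alone lay above uninjured tissue in all DSS libraries of epithelium and below it in all of fibroblasts, under both totals described below. Capitals mark the full element and each CCACG on either strand, and the runs follow the strand of the gene.
Derl3, chr10:75893148-75893397, plus strand: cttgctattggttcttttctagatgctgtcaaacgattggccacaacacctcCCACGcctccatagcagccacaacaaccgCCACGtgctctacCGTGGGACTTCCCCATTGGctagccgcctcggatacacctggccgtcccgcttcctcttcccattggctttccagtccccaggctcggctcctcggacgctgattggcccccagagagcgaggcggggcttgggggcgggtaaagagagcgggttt
Sdf2l1, chr16:17132384-17132633, minus strand: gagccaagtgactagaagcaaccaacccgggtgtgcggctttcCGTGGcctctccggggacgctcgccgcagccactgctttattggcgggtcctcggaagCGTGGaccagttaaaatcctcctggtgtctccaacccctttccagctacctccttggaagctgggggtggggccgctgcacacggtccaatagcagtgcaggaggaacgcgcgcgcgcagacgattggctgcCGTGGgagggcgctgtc
Each run holds 3 copies of CCACG. In Derl3 one of them belongs to the full element printed above, and the Sdf2l1 run holds no full element.

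Depth and the makeup of the libraries bear on every value. The 11 libraries held 55603 cells, from 1820 in the uninjured library to 8953 at day 11, and total counts of 7922350 to 87012379. Days 7, 11 and 18 were fresh libraries of batch C from 3 mice each, with total counts of 79011976 or more. The others were frozen cells of batch A from 8 mice each by the authors' cell table, with 24785337 or fewer. In all, 611 cell barcodes occurred in more than 1 library, on 1238 cells. Levels are given as CPM, a gene's counts per 1000000 counts of a class of cells in a library, where a class joins the authors' cell types, and a class was used in a library with at least 20 cells. Counts of 3' ends do not scale with transcript length, but other differences in capture between genes were not tested. Rankings of members by level are therefore rankings of counts. Goblet cells reached this in 8 libraries, not on days 6, 9 and 12, with 34 to 804 cells. Plasma cells reached it in 9 libraries, not on days 7 and 11, with 24 to 365 cells. Sums of 7 plasma cell markers, antibody genes among them, were 386700 to 611200 CPM in plasma cells, and 8 goblet markers reached 43840 to 149900 CPM in goblet cells. Plasma markers were also counted in cells of other types, at 305 to 7367 CPM in fibroblasts, 123 to 5020 CPM in other columnar cells and 62 to 5060 CPM in goblet cells. Fewer cells and less RNA per cell of a type cannot be told apart where RNA from outside a cell is counted in it.

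Plasma cells had the highest level summed over the set. Their summed level of the 36 genes was 11453 to 20246 CPM over 9 libraries, with a median of 15424, and every plasma value lay above every value of the other classes. The next classes were dendritic cells (median 8132 CPM, 5 libraries), fibroblasts (median 6943, range 5767 to 8200) and goblet cells (median 6931, range 5071 to 10130). The dendritic class held only 21 to 50 cells per library, and plasma markers summed to 263 to 42710 CPM in it. Dendritic markers had a median of 335 CPM there, against 372 in monocytes and macrophages and 486 in B cells. Other columnar cells, the absorptive and crypt epithelium, had a median of 4128 CPM and a range of 2394 to 5359. B cells, the precursors of plasma cells, had 2858 to 3506 CPM, and neutrophils were lowest with 1606 to 2715. The authors' types may have been built from all genes, these included, so differences between classes are given as a description with no test.

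**Figure D1:**
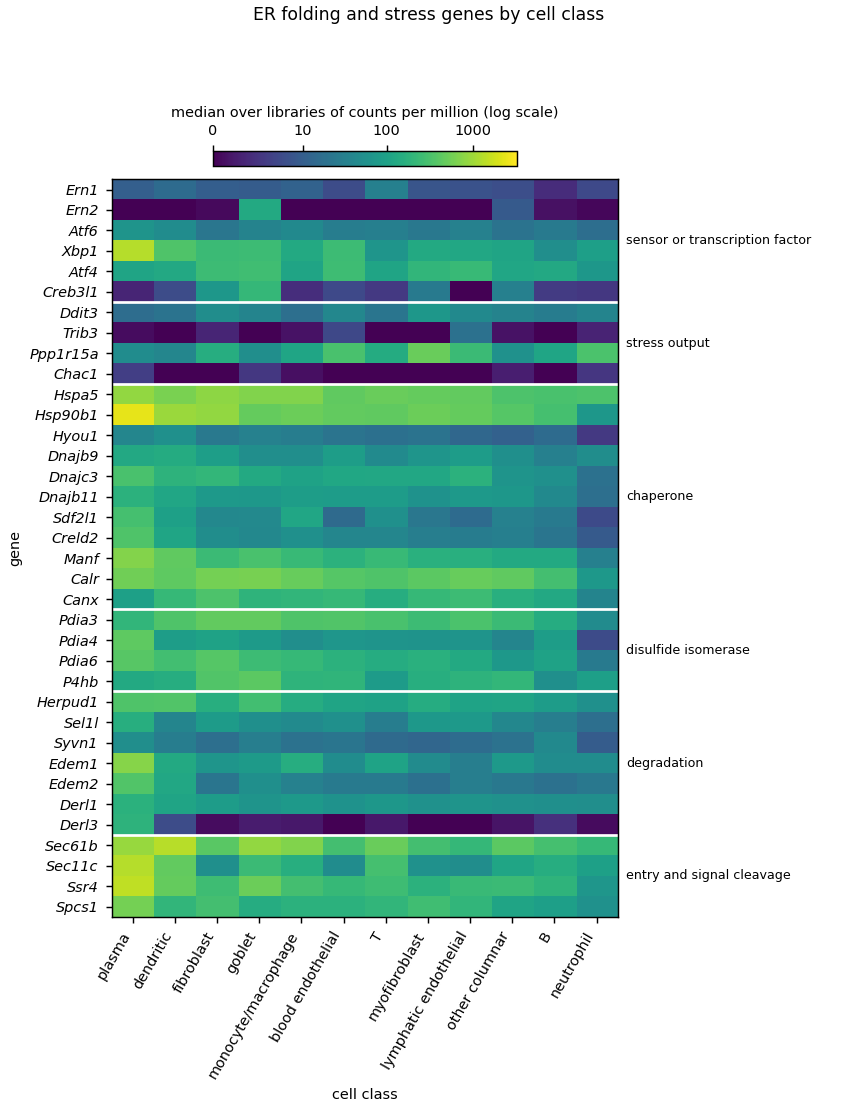
Median level over libraries of each of the 36 genes (rows, grouped by role) in 12 cell classes (columns), in CPM on a log colour scale. Plasma cells are brightest for most chaperone, degradation and entry genes, while Ern2 and Creb3l1 are brightest in goblet cells.

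**Figure D2:**
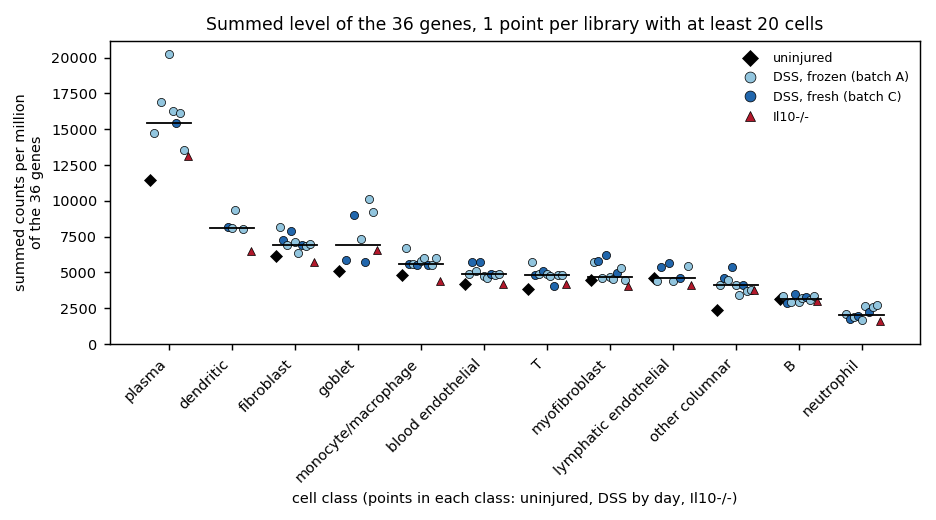
Summed CPM of the 36 genes in each cell class, 1 point per library (black diamonds uninjured, light blue frozen DSS, dark blue fresh DSS, red triangles Il10-/-), with the median as a line. All plasma cell points (11453 to 20246) lie above those of every other class. With all genes in the total, the uninjured point is the lowest of the plasma, goblet and other columnar points. The sums were not repeated without mitochondrial and immunoglobulin genes.

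In plasma cells, 25 of the 34 members with at least 20 counts lay above the other cells of the same library in all 9 libraries, against 3.17% of all genes counted the same way. These 25 include every member of the entry and signal cleavage group and all 7 degradation genes. In 15 members plasma cells were the highest class in 9 of 9 libraries: Xbp1, Hsp90b1, Sdf2l1, Creld2, Manf, Dnajc3, Dnajb11, Pdia4, Sel1l, Edem1, Edem2, Derl3, Sec11c, Ssr4 and Spcs1. Not every member was high, since 6 members, Canx, Pdia3, P4hb, Ddit3, Ppp1r15a and Creb3l1, were below the other cells in all 9 libraries. So were 52.4% of genes. Mitochondrial and immunoglobulin counts made up 46.7 to 67.1% of plasma cell totals in DSS libraries, against 4.92 to 11.8% in fibroblasts. Comparisons of classes kept these counts in the totals, and their part in the plasma cell ratios was not tested.

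Derl3, a channel-like factor of ER-associated degradation whose gene lies at chr10:75893413-75895941 on the plus strand of mm10, was the most restricted member. Its plasma cell level was 199.3 CPM in the uninjured library and 198.8 at day 6, 132.8 at day 9, 182.7 at day 12 and 183.6 at day 16. It was 173.9 CPM at day 18, 202.0 at day 19, 170.3 at day 23 and 213.3 in the Il10-/- library. The median log2 ratio to the other cells of the library was 7.01. In fibroblasts Derl3 did not exceed 5.50 CPM, in goblet cells 3.17 and in other columnar cells 1.87. With all genes in the total its level varied by less than 2-fold between plasma cell libraries, and no other class came near it. Without mitochondrial and immunoglobulin genes, the ratios of DSS plasma cells to uninjured ones were 0.415 to 0.873.

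Xbp1, the transcription factor required for the antibody-secreting state, was at 1001 CPM in uninjured plasma cells. It was 1118 CPM at day 6, 1164 at day 9, 1413 at day 12, 1293 at day 16, 1388 at day 18, 1385 at day 19, 1489 at day 23 and 1064 in the Il10-/- library. Hsp90b1 (GRP94), an ER chaperone of immune receptors and antibodies, was the most abundant member there. It was at 1624 CPM in the uninjured library, 2983 at day 6, 2244 at day 9, 4145 at day 12, 2490 at day 16, 2358 at day 18, 2882 at day 19, 1497 at day 23 and 1888 in Il10-/-. Day 12 was highest and day 23 lowest, and the uninjured value lay near the lower end.

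Sec11c, a catalytic subunit of signal peptidase, was at 814.5 CPM in uninjured plasma cells and at 1151 in Il10-/-. In DSS libraries it lay between 1145 at day 6 and 1831 at day 9. Ssr4, a subunit of the translocon-associated complex, was at 1016 CPM uninjured, 1059 (day 6) to 1760 (day 9) in DSS libraries and 1400 in Il10-/-. Both were lowest in the uninjured library with all genes in the total. Without mitochondrial and immunoglobulin genes the lowest DSS ratio to uninjured was 1.15 for Sec11c and 0.840 for Ssr4. Edem2, a mannosidase-like gene that marks glycoproteins for degradation, had 274.1 CPM at day 6 and 442.8 at day 23 as its extremes, with 401.0 uninjured and 355.7 in Il10-/-. Its median log2 ratio to other cells was 3.65. Creld2, a stress-induced ER protein, had 204.3 CPM uninjured and a range of 245.3 (day 18) to 620.5 (day 12) in DSS libraries, with 328.1 in Il10-/-.

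Hspa5 (BiP), the ER Hsp70 that also holds the stress sensors inactive, was only modestly higher in plasma cells than in their surroundings, with a median log2 ratio of 0.78. Its plasma values ran from 731.8 CPM at day 9 to 1052 at day 12, with 817.0 uninjured and 834.0 in Il10-/-. Atf4 in plasma cells was 92.16 CPM uninjured, 90.84 (day 23) to 182.7 (day 6) in DSS libraries and 104.8 in Il10-/-. Ddit3 (CHOP), a pro-death factor of the response, was 22.42 CPM uninjured, 11.35 (day 23) to 26.87 (day 6) in DSS libraries and 17.15 in Il10-/-. Plasma cells thus had the highest levels of Hsp90b1, Creld2 and Manf of all classes. Ddit3 was below the other cells of each library with all genes in the total, at a median log2 ratio of -1.16.

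**Figure D3:**
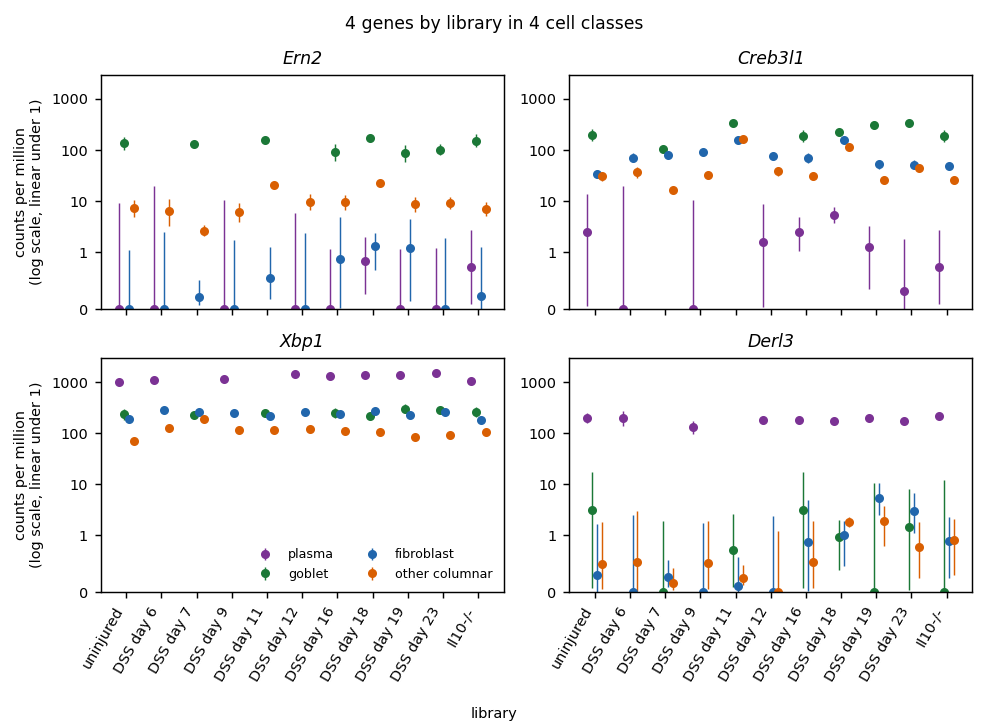
Levels in CPM of Ern2, Creb3l1, Xbp1 and Derl3 by library in plasma, goblet, fibroblast and other columnar cells (log axis, linear under 1), with exact Poisson 95% intervals as bars. Ern2 and Creb3l1 are highest in goblet cells in each of the 8 goblet libraries, and Xbp1 and Derl3 in plasma cells in each of the 9 plasma libraries.

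Goblet cells stood out by a sensor, Ern2, and a transcription factor, Creb3l1, and not by chaperones. Of 34 members, 7 lay above the other cells in all 8 libraries, against 9.44% of genes: Ern2, Creb3l1, Atf4, Pdia3, P4hb, Herpud1 and Sec61b. Ppp1r15a was the 1 member below in all 8, where 19.0% of genes were. Ern2 (IRE1 beta, chr7:122169893-122186207, minus strand, mm10) was highest in goblet cells in 8 of 8 libraries. It was at 136.1 CPM uninjured, 130.8 at day 7, 159.8 at day 11, 91.21 at day 16, 168.4 at day 18, 86.95 at day 19, 102.1 at day 23 and 153.7 in Il10-/-. Its median log2 ratio to the other cells was 5.09. In other columnar cells Ern2 was 2.67 to 22.2 CPM, in fibroblasts 1.34 or less and in plasma cells 0.844 or less.

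Creb3l1 (OASIS), a membrane-bound transcription factor of the ER (chr2:91982328-92024502, minus strand, mm10), was likewise highest in goblet cells in 8 of 8 libraries. Its values were 199.4 CPM uninjured, 106.3 at day 7, 341.7 at day 11, 191.8 at day 16, 225.0 at day 18, 310.1 at day 19, 336.5 at day 23 and 187.1 in Il10-/-. The lowest value was day 7, the earliest DSS library in which goblet cells could be used. P4hb, the protein disulfide isomerase PDI, was 294.4 CPM uninjured, 276.2 (day 18) to 582.6 (day 19) in DSS libraries and 390.8 in Il10-/-. Chac1, a glutathione-degrading output of ATF4, had the third highest ratio in goblet cells, yet it was at 0 CPM in the uninjured, day 23 and Il10-/- libraries and at most 6.78 CPM at day 7, too few counts to describe a course. In plasma cells Chac1 reached 21.5 CPM from 93 counts in all and was above the other cells in 8 of 9 libraries.

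The most abundant members of goblet cells were Sec61b, Hspa5, Calr and Pdia3. Sec61b, a subunit of the translocation channel, was 367.2 CPM uninjured, 380.5 at day 7, 903.9 at day 11, 990.7 at day 16, 451.1 at day 18, 1284 at day 19, 1133 at day 23 and 791.6 in Il10-/-. Hspa5 was 383.0 CPM uninjured, 674.5 at day 7, 879.3 at day 11, 710.8 at day 16, 528.3 at day 18, 1101 at day 19, 769.3 at day 23 and 521.1 in Il10-/-. For both the uninjured library was lowest and day 19 highest with all genes in the total. Without mitochondrial and immunoglobulin genes the lowest DSS ratio to uninjured was 0.873 for Sec61b and 1.24 for Hspa5. Calr, the soluble lectin chaperone, ran from 386.2 CPM uninjured to 834.8 at day 19. Pdia3, the isomerase that works with it on glycoproteins, ran from 395.7 uninjured to 773.6 at day 11. Without mitochondrial and immunoglobulin genes its lowest DSS ratio to uninjured was 0.861. Xbp1 was steady, with 234.2 CPM uninjured, 211.6 (day 18) to 301.4 (day 19) in DSS libraries and 257.2 in Il10-/-.

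Atf4 in goblet cells was 341.9 CPM uninjured and 339.3 at day 7, then 162.0 at day 11, 198.1 at day 16, 195.0 at day 18, 321.7 at day 19 and 234.4 at day 23, with 293.9 in Il10-/-. Ddit3 was 53.81 CPM uninjured (17 counts), 59.42 at day 7, 43.82 at day 11, 22.02 at day 16, 47.64 at day 18, 28.98 at day 19, 28.76 at day 23 and 30.06 in Il10-/-. Both were near their highest in the uninjured library, the reverse of Hspa5.

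Fibroblasts led the classes for Canx and shared the lead with goblet cells for P4hb and Pdia3. Of 36 members, 11 were above the other cells in all 11 libraries, but so were 28.8% of all genes in this class. The 11 were Atf4, Ddit3, Hspa5, Dnajc3, Calr, Canx, Pdia3, Pdia6, P4hb, Sel1l and Spcs1, and Ern2, Edem2, Derl3 and Sec11c were below in all 11 libraries, where 18.8% of genes were. Canx, the membrane-bound lectin chaperone, was highest in fibroblasts in 9 of 11 libraries, at 247.8 CPM uninjured, 307.3 (day 23) to 405.8 (day 6) in DSS libraries and 229.8 in Il10-/-. P4hb, which is also a subunit of the enzyme that hydroxylates collagen prolines, was highest in fibroblasts in 6 of 11 libraries and in goblet cells in 5.

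Hsp90b1 was the most abundant member of fibroblasts, at 746.5 CPM uninjured, 743.6 (day 7) to 1242 (day 6) in DSS libraries and 625.7 in Il10-/-. Hspa5 was 653.6 CPM uninjured, 923.8 at day 6, 1035 at day 7, 621.3 at day 9, 1036 at day 11, 707.5 at day 12, 771.2 at day 16, 833.8 at day 18, 801.8 at day 19, 867.8 at day 23 and 611.6 in Il10-/-. Calr was 426.1 (day 16) to 704.2 CPM (day 7) and Pdia3 364.7 (day 16) to 529.8 (day 11). These 4 varied by less than 2-fold over all libraries.

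Creb3l1 had the largest ratio of the members in fibroblasts, with a median log2 ratio of 2.03 and values above the other cells in 10 of 11 libraries. It was at 34.67 CPM uninjured, 71.01 at day 6, 79.94 at day 7, 92.40 at day 9, 157.7 at day 11, 76.31 at day 12, 70.27 at day 16, 155.3 at day 18, 52.56 at day 19, 51.73 at day 23 and 49.63 in Il10-/-. The uninjured library was lowest, and the highest values, days 11 and 18, were both of batch C. Pdia6 (289.0 to 521.4 CPM) and Dnajc3 (162.0 to 297.3 CPM), a cochaperone of BiP, were the next by ratio, with medians of 1.40 and 1.18 on the log2 scale. Fibroblast Xbp1 was 184.2 (Il10-/-) to 277.9 CPM (day 6), Atf4 196.8 (day 23) to 382.7 (day 7) and Ddit3 39.22 (day 6) to 72.11 (day 19), with uninjured values of 188.6, 253.4 and 59.17 CPM.

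Other classes were marked by single members. Ern1 (IRE1 alpha) was highest in T cells in 11 of 11 libraries, at 21.3 to 58.3 CPM. Ppp1r15a (GADD34), which restores translation by dephosphorylating eIF2 alpha, was highest in myofibroblasts in 6 libraries (186 to 804 CPM) and in neutrophils in 4 (176 to 778 CPM). Ddit3 was highest in myofibroblasts in 8 of 11 libraries (39.6 to 131 CPM). Trib3, a pseudokinase induced by ATF4 and CHOP, was highest in lymphatic endothelial cells in 6 of 8 libraries (8.31 to 38.3 CPM) from 60 counts in all. In neutrophils 29 of 35 members were below the other cells in all 10 libraries, where 62.6% of all genes were. B cells had 0 of 34 members above the other cells in every library, against 13.2% of genes, and 17 below, against 23.4%. Other columnar cells had 0 of 36 above, against 17.8% of genes, and 10 below, Hspa5, Xbp1 and Atf4 among them, against 26.2%.

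Members with an ERSE match did not share 1 class pattern. In plasma cells 8 of the 9 lay above the other cells in all libraries, beside 12 of 20 with a promoter but no match and 5 of 7 with no promoter entry. In fibroblasts the counts were 5 of 9, 6 of 20 and 0 of 7. In goblet cells they were 0 of 9, 5 of 20 and 2 of 7. The exception in plasma cells was Canx, although its promoter holds the element. Its median log2 ratio there was -0.96 with all genes in the total.

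Within the other columnar cells the authors' types differed in which arm of the set they held. Creb3l1 was 59.0 to 251 CPM in the type Crypt-1 and 24.4 to 112 in Crypt-2, and 16.5 or less in the types Car4, Car4/Ly6g and Dpep1/Guca2a. Ern2 followed the same order, with 6.3 to 36.6 CPM in Crypt-1 and at most 5.4 in those 3 types. Summed goblet markers in other columnar cells were 229 to 2277 CPM, with 971 at day 11 and 2277 at day 18, the libraries with the highest columnar Creb3l1 (162.3 and 115.5 CPM) and Ern2 (21.1 and 22.2 CPM). The part of these markers in the Creb3l1 and Ern2 values was not tested. Ppp1r15a was highest in Car4/Ly6g, at 348 CPM at day 7, 271 at day 9 and 204 at day 6, with 47.8 uninjured, while Crypt-1 had 18.4 to 45.4 CPM. Hspa5 at day 7 was 835 CPM in Crypt-2 and 611 in Car4/Ly6g, against 214 in both types of the uninjured library.

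The DSS libraries were set against the only uninjured library as ratios of CPM. No test was possible with 1 control library, and all ratios share it, so members are counted by whether every DSS library lay on the same side. The uninjured epithelium also had a large share of mitochondrial and immunoglobulin counts, 35.5% in other columnar cells against 11.2 to 27.5% in DSS libraries. In plasma cells this share was 66.8% uninjured and 46.7 to 67.1% in DSS libraries. Counts were therefore repeated with both kinds of gene left out of the totals. That moved the median log2 ratio of all genes from between 0.116 and 0.556 to between -0.257 and 0.185 in other columnar cells, and from between -0.0581 and 0.692 to between -0.181 and 0.0704 in plasma cells. Summed neutrophil markers were lowest in the uninjured library in each class. They were 417 CPM uninjured and 718 to 10920 in DSS libraries in other columnar cells, 22.2 and 211 to 33630 in goblet cells, 4.98 and 181 to 3117 in plasma cells and 11.7 and 207 to 4691 in fibroblasts. Their part in the ratios was not tested.

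In other columnar cells many folding genes stood higher in every DSS library than in the uninjured one. The class joins several of the authors' types, and the part of their mix in these ratios was not tested. Of 36 members, 20 (55.6%) were above in all 9 DSS libraries, against 22.6% of genes, and 1 was below, against 7.85%. With both totals 12 remained above, against 11.6% of genes: Hspa5, Hsp90b1, Sdf2l1, Creld2, Manf, Calr, Pdia4, Pdia6, P4hb, Xbp1, Sec61b and Ssr4. Of these, 9 are chaperones or isomerases, and Ddit3 alone remained below, where 7.8% of genes were. Hspa5 was 178.0 CPM uninjured, 448.1 at day 6, 642.4 at day 7, 379.7 at day 9, 430.2 at day 11, 347.6 at day 12, 310.2 at day 16, 298.3 at day 18, 327.4 at day 19, 318.8 at day 23 and 330.7 in Il10-/-. The day 7 ratio was 3.61 (exact conditional 95% interval 3.35 to 3.90) and the smallest, day 18, was 1.68 (1.56 to 1.81), and these intervals cover counting error only.

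Sec61b had the highest median ratio in other columnar cells (2.47), from 182.7 CPM uninjured to between 362.3 (day 16) and 654.9 (day 11). Hsp90b1 followed with a median ratio of 2.37, from 164.5 CPM to between 287.9 (day 16) and 496.4 (day 11). Sdf2l1, a partner of the cochaperone Dnajb11, had 2.14, from 16.22 CPM to between 20.06 (day 6) and 56.18 (day 11). Xbp1 was 68.88 CPM uninjured and 84.08 (day 19) to 192.5 (day 7) in DSS libraries. Ddit3 was the 1 member below under both totals, at 55.16 CPM uninjured and 29.80 (day 9) to 47.50 (day 6), with a median ratio of 0.643. Atf4 (114.1 CPM uninjured, 99.68 to 165.9 in DSS) and Derl1 (58.15 uninjured, 53.16 to 73.14 in DSS) had the next lowest median ratios, both 1.05. Of the 11 chaperones, 6 were above under both totals, while Dnajb9, another cochaperone of BiP, ran from 0.533 to 1.51 times the uninjured level.

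In goblet cells 16 of 34 members (47.1%) were above uninjured in all 6 DSS libraries, against 16.8% of genes, and 2 below, against 19.4%. With both totals 10 were above, against 13.8%: Hspa5, Sdf2l1, Manf, Calr, Dnajc3, Dnajb11, Pdia6, Edem1, Derl1 and Ssr4. Atf4 and Herpud1, a membrane component of the degradation complex, were below. With only cells of at least 1000 counts and up to the 99th percentile of their library and class, Herpud1 stayed below in all 6 and Atf4 did not. Pdia6 went from 114.0 CPM uninjured to between 160.0 (day 7) and 385.3 (day 23), with a median ratio of 2.84. Edem1 went from 34.82 CPM (11 counts) to between 68.80 and 116.5, with a median ratio of 2.74. Sdf2l1 had the highest median ratio, 4.71, but its uninjured value of 12.66 CPM rests on 4 counts. Its ratio at day 23 was 9.88, with an interval of 3.72 to 37.1, and at day 7 it was 2.22, with an interval of 0.820 to 8.45. The lowest median ratios were Atf4 (0.633), Ddit3 (0.676) and Hyou1 (0.703), and Hyou1 varied from 5.80 CPM at day 19 to 51.18 at day 11, with 37.99 uninjured.

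In plasma cells 14 of 34 members (41.2%) were above uninjured in all 7 DSS libraries, against 20.1% of genes, and 0 below, against 11.7%. This count moved with the total: 7 remained with both totals, against 14.1% of genes, and 5 members were below when immunoglobulin and mitochondrial genes were left out, where 22.9% of genes were. The 7 were Ern1, Dnajc3, Creld2, Syvn1, Derl1, Sec61b and Sec11c, and the 5 were Pdia3, Canx, Derl3, Ddit3 and Ppp1r15a. Creld2 had a median ratio of 2.56 and Syvn1 (HRD1), the ubiquitin ligase of ER-associated degradation, 2.18, and without immunoglobulin and mitochondrial genes these were 1.67 and 1.68. Syvn1 was 27.40 CPM uninjured (11 counts) and 37.63 (day 23) to 102.1 (day 6) in DSS libraries. Ern1 had the highest median ratio, 4.24, but rests on 1 uninjured count: 2.491 CPM with an interval of 0.0631 to 13.9, against 4.542 to 12.60 in DSS libraries and 15.66 in Il10-/-. The lowest medians were Creb3l1 (0.511, also 1 uninjured count, 0 to 5.403 CPM in DSS), Ddit3 (0.707) and Ppp1r15a (0.744, 67.26 CPM uninjured and 34.44 to 75.24 in DSS).

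In fibroblasts 10 of 36 members (27.8%) were above uninjured in all 9 DSS libraries, against 16.9% of genes, and 4 below, against 12.2%. Both totals gave the same 10 and 4, with backgrounds of 16.7% and 11.6%. The 10 were Ern1, Xbp1, Creb3l1, Hyou1, Dnajc3, Canx, P4hb, Sel1l, Edem1 and Sec11c, and the 4 were Trib3, Edem2, Ppp1r15a and Sdf2l1. Of the 10, Hyou1, Dnajc3 and Canx are chaperones or cochaperones, and the share of members below was close to that of all genes. Hyou1 (GRP170), the exchange factor of BiP, was 10.16 CPM uninjured, 50.04 at day 6, 38.28 at day 7, 25.02 at day 9, 38.30 at day 11, 22.63 at day 12, 14.23 at day 16, 30.87 at day 18, 25.67 at day 19, 19.27 at day 23 and 8.271 in Il10-/-. Its median ratio was 2.53. Ern1 was 3.885 CPM uninjured (13 counts) and 4.447 to 16.10 in DSS libraries, with a median ratio of 2.97, and Creb3l1 had 2.20.

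At the low end in fibroblasts, Trib3 was 5.379 CPM uninjured (18 counts) and 0 to 2.237 in DSS libraries, with 0 counts on days 9, 16 and 19, which allow up to 1.44 to 2.67 CPM, and 3.800 in Il10-/-. Edem2 was 30.18 CPM uninjured and 15.12 (day 16) to 26.37 (day 23), with a median ratio of 0.643. Herpud1 was 189.2 CPM uninjured and 96.25 (day 9) to 215.3 (day 16), with a median ratio of 0.660 but values above uninjured on days 16 and 23. Sdf2l1 in fibroblasts had a median ratio of 0.698, from 55.89 CPM to between 25.79 (day 16) and 54.01 (day 11). Sdf2l1 was therefore above uninjured in every DSS library of goblet and other columnar cells and below it in every one of fibroblasts. Edem2 had the same pattern with all genes in the total. Its ratios were 1.04 to 1.97 in goblet cells and 1.03 to 1.52 in other columnar cells. Without mitochondrial and immunoglobulin genes its lowest ratios there were 0.879 and 0.889.

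**Figure D4:**
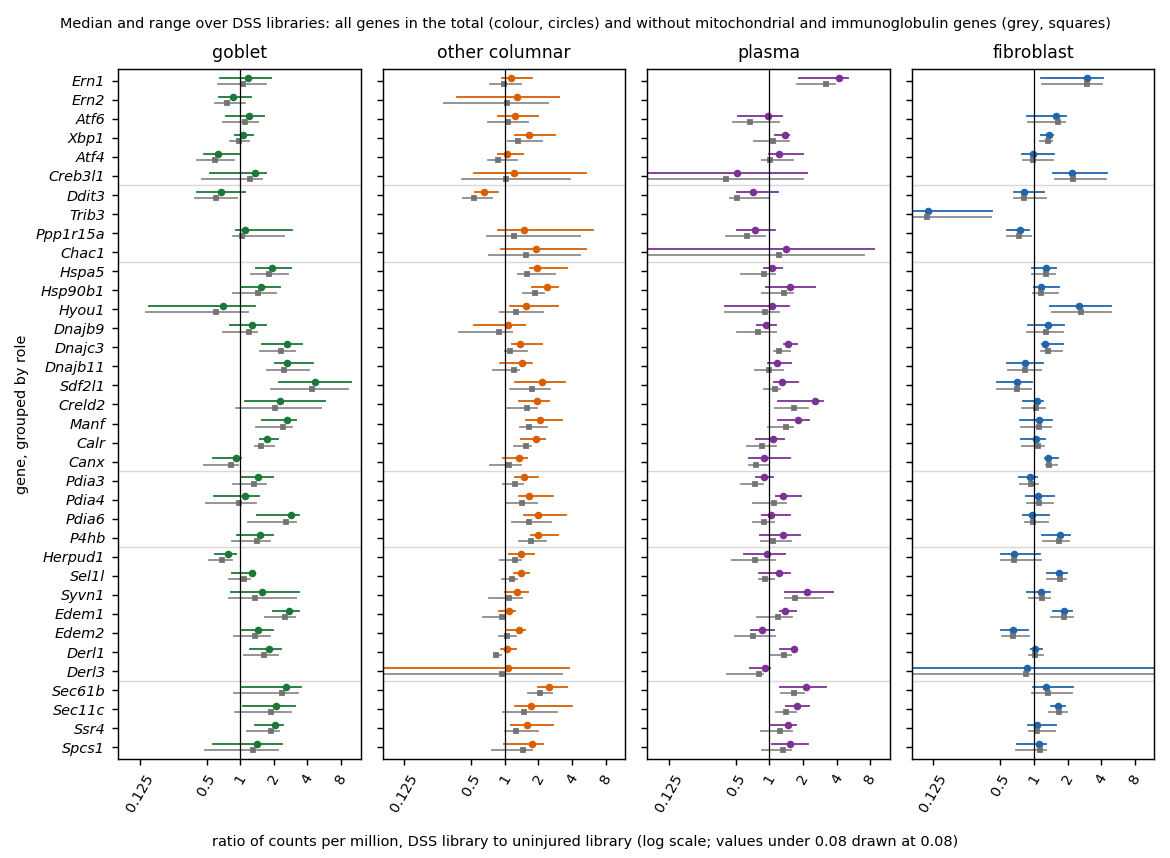
Ratio of CPM to the uninjured library for members with at least 20 counts in 4 classes (log axis), as the median (points) and range (lines) over the DSS libraries, with all genes in the total (colour) and without mitochondrial and immunoglobulin genes (grey). Other columnar cells lie to the right of 1 for Hspa5, Hsp90b1 and Sec61b and to the left for Ddit3 under both totals, and Sdf2l1 lies right in epithelium and left in fibroblasts.

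In the Il10-/- library members were counted that lay at least 2-fold from the uninjured one. In other columnar cells 4 of 33 members were at least 2-fold above (Sec61b, Calr, P4hb and Sdf2l1), against 9.28% of genes, and 0 remained with mitochondrial and immunoglobulin genes left out, where 7.41% of genes were. In goblet cells 3 of 22 were (Sec61b, Edem1 and Dnajb11), against 5.24%. In plasma cells 1 of 32 was (Ern1), against 10.8%, and in fibroblasts 0 of 32 were, against 4.97%. No member was 2-fold below in these 4 classes, where 4.43, 5.70, 5.66 and 1.75% of genes were. In monocytes and macrophages Ddit3 was 52.86 CPM uninjured (14 counts in 67 cells) and 16.83 in Il10-/-, the 1 of 31 members at least 2-fold below, where 13.3% of genes were 2-fold below. The 9 DSS libraries lay at 15.68 to 19.79 CPM, so the uninjured macrophages stood apart from all 10 others in this gene. In B cells 5 of 30 members were above (Pdia3, Edem2, Ssr4, Xbp1 and Sdf2l1), against 6.07% of genes, and 5 below (Atf6, Ddit3, Herpud1, Hyou1 and Sel1l), against 28.0%. In T cells 2 of 31 were above (Ssr4 and Sec11c), against 6.54%, and 3 below (Xbp1, Sdf2l1 and Syvn1), against 39.0%. Sdf2l1 and Xbp1 thus lay above in B cells and below in T cells. The uninjured library held only 53 B cells (74140 counts) and 38 T cells (56247 counts). Every DSS library lay on the same sides for both genes, so the contrast was not particular to Il10-/-. The macrophages had 0 of 31 above, against 10.2%. Blood endothelial cells had 1 of 14 above and 0 below (11.8 and 2.56% of genes), and lymphatic endothelial cells 1 of 16 and 0 (7.64 and 2.05%). Myofibroblasts had 1 of 10 above and 1 below (8.64 and 4.99%). The DSS and Il10-/- ratios share the same uninjured control.

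Trends along the DSS course were tested across the libraries of days 6 to 23 with edgeR's quasi-likelihood test, with day and batch label as terms and Benjamini-Hochberg adjustment over all genes. A slope is the log2 change per 10 days. P-values measure the spread between these libraries along the line. The trend passed in 2 of the 32 tested members in fibroblasts, where 4.65% of genes passed, and in 5 of the 32 in monocytes and macrophages, where 12.4% passed. The shares of members called were therefore close to those of all genes, and their median slopes were -0.09 against 0.0039 for all genes in fibroblasts and -0.13 against 0.0058 in macrophages. P4hb and Sec61b fell in fibroblasts. In macrophages P4hb, Atf4, Edem1 and Hyou1 fell and Sdf2l1 rose.

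P4hb in fibroblasts was 482.8 CPM at day 6, 393.7 at day 7, 433.6 at day 9, 484.9 at day 11, 394.5 at day 12, 314.9 at day 16, 354.6 at day 18, 290.3 at day 19 and 271.3 at day 23. The first 5 days all lay above the last 4. Its level was 230.4 CPM uninjured and 217.7 in Il10-/-, below every DSS value. The slope was -0.51 ± 0.10 (SE, adjusted p = 0.0133, edgeR, 9 libraries). Without day 6 it was -0.48 with an adjusted p of 0.0864, and without the batch term -0.49 with an adjusted p of 0.0864.

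Sec61b in fibroblasts was 707.4 CPM at day 6, 359.2 at day 7, 669.4 at day 9, 494.4 at day 11, 550.3 at day 12, 398.5 at day 16, 307.7 at day 18, 406.4 at day 19 and 391.5 at day 23. The batch C libraries of days 7 and 18 were the lowest, and the uninjured library had 316.8 CPM. Its slope was -0.58 ± 0.12 (SE, adjusted p = 0.0185, edgeR, 9 libraries). The call was lost without day 6, 9, 18 or 19 (adjusted p = 0.0514 to 0.100), without the batch term and among cells with no Jchain count. Cells with a count of Jchain, an antibody chain of plasma cells, made up 1.82 to 27.7% of fibroblasts between days 6 and 11 and 46.0 to 90.1% between days 16 and 23, and these cells are the ones left out. If every Jchain count came from plasma cells of the same library, their RNA would make up at most 3.36% of fibroblast Sec61b counts.

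In monocytes and macrophages Sdf2l1 was 105.6 CPM at day 6, 86.21 at day 7, 98.75 at day 9, 97.19 at day 11, 116.7 at day 12, 142.9 at day 16, 166.8 at day 18, 131.0 at day 19 and 211.9 at day 23. The last 4 days all lay above the first 5, and the uninjured value was 158.6 CPM. The slope was 0.60 ± 0.10 (SE, adjusted p = 0.00211, edgeR, 9 libraries). It stayed called without any 1 library, with slopes of 0.52 to 0.67, and was 0.29 and not called among cells with no Jchain count. P4hb there was 242.9 CPM at day 6 and 166.1 at day 23, with 98.17 uninjured (26 counts), and its slope was -0.34 ± 0.08 (adjusted p = 0.0159), which was not called without day 23 (adjusted p = 0.0811) or without the batch term (adjusted p = 0.276).

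Atf4 in macrophages was 165.1 CPM at day 6 and 175.8 at day 7, and 99.76 to 114.9 on all later days, a step more than a line. Its slope was -0.43 ± 0.12 (adjusted p = 0.0282), and it was not called without day 6, 7, 18 or 23 (adjusted p of 0.0502 or more). Edem1 was 211.9 CPM at day 6, 186.6 at day 9, 186.2 at day 12, 178.7 at day 16, 162.4 at day 19 and 147.2 at day 23, and lower in batch C at 123.9, 148.7 and 103.6 on days 7, 11 and 18. Its slope was -0.31 ± 0.09 (adjusted p = 0.0329), and it was not called without day 6, 9, 18, 19 or 23 (adjusted p = 0.0502 to 0.154). Hyou1 was 57.04 CPM at day 6 and 25.98 to 32.50 afterwards, so its slope of -0.46 ± 0.13 (adjusted p = 0.0388) became -0.21 without day 6, and it was not called without day 6, 16, 19 or 23 (adjusted p = 0.0546 to 0.332). None of the 5 macrophage calls passed among cells with no Jchain count, and cells with one made up 1.04 to 23.0% of macrophages between days 6 and 11 and 39.9 to 88.2% between days 16 and 23. By the same estimate as for fibroblasts, plasma cell RNA made up at most 3.64% of Sdf2l1 and 1.12% of P4hb counts in macrophages. For Atf4, Edem1 and Hyou1 it was at most 1.64, 7.25 and 2.3%. Leaving cells out also lowered the counts, and the reason for the lost calls was not tested. Summed neutrophil markers in macrophages were 30.2 CPM uninjured and up to 10740 CPM at day 11, and their part in these slopes was not tested.

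**Figure D5:**
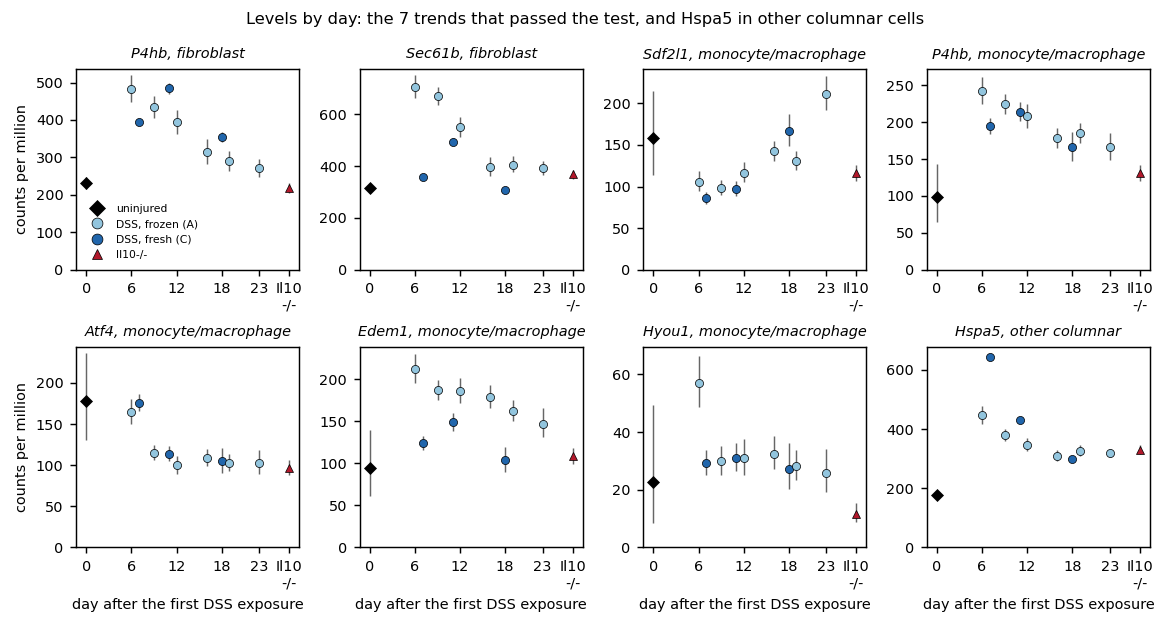
CPM by day from the start of DSS, with exact Poisson 95% intervals, for the 7 trends that passed the test and for Hspa5 in other columnar cells, whose trend did not. Fibroblast P4hb runs from 482.8 at day 6 to 271.3 at day 23, and macrophage Sdf2l1 from 105.6 to 211.9.

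No member passed in the other 7 classes. In other columnar cells 0 of 33 members were called by edgeR (0.234% of genes) and 0 by DESeq2. There 8 had an unadjusted p under 0.05 and 27 of 33 slopes were negative, with a median of -0.22 against 0.0067 for all genes. Among them Hspa5 had a slope of -0.53 ± 0.20 (adjusted p = 0.309) and Xbp1 -0.53 ± 0.19 (adjusted p = 0.274). In goblet cells 0 of 33 were called by edgeR (0.0114% of genes) and 0 by DESeq2, with 1 under 0.05 unadjusted, over 6 libraries. In simulated goblet data a slope of 1 was recovered in 0% of genes and a slope of 2 in 38%, so moderate goblet trends were not detectable.

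In plasma cells 0 of 34 members were called by edgeR (1.47% of genes) and 2 by DESeq2, with 8 under 0.05 unadjusted, over 7 libraries. The median slope of the members was 0.32 against 0.084 for all genes. The lowest adjusted p was that of Edem2, with a slope of 0.78 ± 0.24 and an adjusted p of 0.0617 (edgeR). In blood endothelial cells 0 of 25 members were called (1.30% of genes, 3 under 0.05 unadjusted), in neutrophils 0 of 33 (2.61%, 6), in B cells 0 of 30 (0.876%, 4) and in T cells 0 of 31 (0.217%, 3), all by edgeR, and 0 by DESeq2 in each.

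Slopes were also compared between classes within libraries. Between goblet and other columnar cells 0 of 34 members differed (0.225% of genes, 3 under 0.05 unadjusted, 0 by DESeq2). Between plasma and B cells 0 of 34 differed (0.304%, 2 unadjusted, 0 by DESeq2). Between fibroblasts and other columnar cells 0 of 34 differed (0.0770%, 6 unadjusted, 1 by DESeq2). No trend of a member was therefore shown to differ between these classes. Most members had slopes of both signs, such as Calr, negative in 5 of 9 classes, and Pdia3, negative in 3 of 9. Atf4 was negative in 9 of 9 and Hyou1 in 8 of 8, the only members tested in 8 or more classes with 1 sign in all. The classes of a library share its handling, so the shared sign is no replication.

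The 94 other genes of the pathway, which cover PERK and its targets, the rest of the translocon, oxidative folding, glycosylation, degradation and export, had day trends called in 6 of the 9 classes. In fibroblasts 2 of 93 tested rose and 9 fell with day, where 4.65% of all genes were called. Atf3, a stress-induced transcription factor, had a slope of 0.91 and Nupr1, a stress-induced nuclear protein, 0.79. Ddit4, an inhibitor of mTORC1 signalling, had -1.07 and Pdia5, a disulfide isomerase, -0.74. In macrophages 4 of 87 rose and 9 fell, a share near the 12.4% of all genes called, led by Pdia5 (0.86), Atf3 (0.85) and the COPII coat genes Sec24d (-0.85) and Sec23b (-0.70). In plasma cells Asns, asparagine synthetase, rose by 1.29 and Erlec1, an ER lectin of degradation, by 0.77, with 0 of 90 falling and 1.47% of all genes called.

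Neutrophils had 2 of 81 other pathway genes falling, Qsox1 (-1.18) and Surf4 (-0.76), near the 2.61% of all genes. B cells had 1 of 79, Slc7a11 (-1.40), against 0.876%, and endothelial cells 1 of 61 rising, Atf3 (0.80), against 1.30%. Other columnar, goblet and T cells had 0 of 92, 89 and 85. Atf3 therefore rose in 3 classes, in which genes of cell dissociation and immediate early response also moved: 3 of 16 rose and 1 fell in fibroblasts, 3 rose and 1 fell in macrophages and 2 rose in endothelial cells. Such genes were also called where Atf3 was not, in plasma cells (Dnajb1 1.71, Jun 1.05, Ier3 -1.29) and B cells (Fos 0.51, Ier3 -1.20). Their part in the Atf3 slopes was not tested.

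In 7 of the 9 classes more members were called for the batch label than for day. The label stands for fresh handling, greater depth and smaller pools at once, and the labels also give these 3 libraries as total RNA and the others as polyA RNA. These cannot be told apart. The share of all genes called was 15.3% in fibroblasts, 9.76% in other columnar cells, 25.4% in macrophages, 0.332% in goblet cells, 6.54% in plasma cells, 18.1% in B cells, 11.7% in T cells, 11.3% in endothelial cells and 11.2% in neutrophils. In fibroblasts 6 of 32 members were lower in batch C, a share close to that background (15.3%): Spcs1 by a log2 change of -0.90, Sec61b -0.74, Herpud1 -0.61, Hsp90b1 -0.59, Edem1 -0.41 and Canx -0.36. Without day 18 this count was 2. In other columnar cells 0 of 33 were called by edgeR (9.76% of genes, 9 under 0.05 unadjusted) and 5 by DESeq2, and without day 7 edgeR called 13. In macrophages 16 of 32 were lower and 2 higher, where 25.4% of genes were called. Neutrophils had 8 of 33 lower and 1 higher, B cells 7 of 30 lower, T cells 4 of 31 lower, plasma cells 2 of 34 higher and endothelial cells 1 of 25 lower. Goblet cells had 0 of 33 called by edgeR and 0 by DESeq2, with 3 under 0.05 unadjusted, and edgeR called 2 without day 7 or day 11. These counts rest on few libraries: without day 18 neutrophils had 2 calls and T cells 0, and in plasma cells 0 were called by DESeq2 or without day 16 or day 23.

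Spcs1, a small subunit of signal peptidase, and Creld2 were lower in batch C in 9 of 9 classes, and passed in 6 and 4 of them. Sec61b, Canx, Herpud1 and Ppp1r15a were also lower in 9 of 9, and Syvn1 in 8 of 8. Many other members had both signs, such as Pdia3, lower in 4 of 9. Creb3l1 was higher in 6 of 6 classes, passing in 3, with a median log2 change of 1.60, and Atf6 was higher in 8 of 8. The high fibroblast and columnar values of Creb3l1 on days 11 and 18 described above belong to this batch, although day 7 of the same batch was not high in columnar cells (16.17 CPM).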

How the data were processed

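Single-cell 3' libraries of 11 pools of mouse colonic mucosa were used. The deposited matrix holds whole-number counts of molecular identifiers per gene and cell. The authors made these counts with Cell Ranger 3.0.0 against mm10, per the submitters' processing notes, and the sources used here do not give their cell filter or their treatment of doublets. The lowest count per cell was 490 to 501 by library. Of 68224 cells, 12621 in 3 libraries that matched no sample were not used. Of 30406 gene rows, 597 with a placeholder name (0.517% of counts) were left out.

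The authors' 28 cell types were joined into classes and counts were summed per library and class. Trends used edgeR 4.0.16 (quasi-likelihood, robust, TMM, filterByExpr) in classes that had 20 cells or more in 6 or more DSS libraries. Genes with an adjusted p under 0.05 were called. DESeq2 1.42.0, other filters, scalings, cell sets and batch terms, and each library left out in turn, were tried as alternatives. Ratios used exact 95% intervals. The steps were tested on simulated data, in which a slope of 1 was recovered in 78% of fibroblast, 78.5% of macrophage, 53.5% of other columnar and 16% of plasma genes. A slope of 0.5, nearer to the called slopes, was recovered in only 4% of fibroblast and 10% of macrophage genes. At that slope 11.1% of 9 fibroblast calls and 28.6% of 28 macrophage calls were false. Intervals cover counting error only.

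The members and lists were chosen with earlier results of these data known. All members could be named. Values by library were given for members called in a trend, for the 4 with the highest mean and the 4 with the highest ratio to other cells in goblet cells, plasma cells and fibroblasts, for Hspa5, Xbp1, Atf4 and Ddit3, and for the 3 highest and 3 lowest ratios to uninjured per class. Of the other pathway genes, up to 4 called per class with the largest slopes were named. No protein sequence was used here.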

Additional observations from a re-analysis of the deposited data

Results flagged for a closer look

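Sdf2l1, a partner of the BiP cochaperone Dnajb11, was singled out because every DSS library lay on one side of the uninjured library in epithelium and on the other side in fibroblasts. In other columnar cells its median ratio to uninjured was 2.14, and in goblet cells it was 4.71, from an uninjured level that rests on 4 counts. In fibroblasts it was 0.698. Edem2 also lay on opposite sides with all genes in the total, but not without mitochondrial and immunoglobulin genes. The difference between these classes was not tested, and all ratios share the same uninjured library.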

How the results depend on the processing

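No paired analysis was possible because each group has 1 library. The planned sums of cells with no Jchain count were not run for B cells, since that alternative is for classes other than plasma and B cells. Subtracting an estimate of plasma cell RNA and a minimum of 10 cells were added after the data were seen.

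Of the counts of members called or compared, 221 of 258 recomputed values stayed within 1.5 times. Counts of 0 that stayed at 0 are among these 221. In fibroblasts the 2 day trends became 5 with DESeq2, 4 without the filter on low counts, 4 with only the libraries that carry no batch label, 1 with cells with no Jchain count and 0 with no batch term. In macrophages the 5 became 0 with cells with no Jchain count and 1 with no batch term. Counts of 0 became 1 in B cells and in other columnar cells with only the libraries that carry no batch label, 1 in neutrophils without the filter and with cells with no Jchain count, and 2 with DESeq2 and 1 with stricter cells in plasma cells. The difference between fibroblasts and other columnar cells became 1 with DESeq2, 1 without the filter and 2 with only the libraries with no batch label, and that between goblet and other columnar cells became 1 without the filter and 1 with at least 10 cells. The batch term in other columnar cells became 5 with DESeq2. The Il10-/- count became 0 of 4 in other columnar cells without mitochondrial and immunoglobulin genes and 1 of 3 in goblet cells with stricter cells.

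Leaving out 1 library at a time gave 0 to 3 calls in fibroblasts (0 without day 6, 1 without day 9, 18 or 19), 2 to 7 in macrophages (2 without day 6 or day 23, 3 without day 18 or day 19), 0 to 2 in plasma cells (2 without day 6) and 0 to 1 in other columnar cells (1 without day 7). The difference between fibroblasts and other columnar cells gave 0 to 4 (3 without day 7, 4 without day 11) and that between goblet and other columnar cells 0 to 4 (4 without day 11). The batch term gave 0 to 13 in other columnar cells (13 without day 7, 1 without day 11) and 2 to 6 in fibroblasts (2 without day 18). The other counts stayed at 0. The cause of these changes was not tested. None of the 7 called slopes changed sign in any alternative, and 34 of 126 recomputed slopes no longer passed.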
